A study of Mus musculus with 2 samples.

Results

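Hemoglobin-rich barcodes were droplets in which hemoglobin transcripts made up at least 10% of the RNA read, and most of it in all but 2 of them. They were selected on their globin counts from single-cell libraries of tumor-infiltrating natural killer (NK) cells: the summed unique molecular identifiers (UMIs, each tagging 1 captured transcript) of Hba-a1, Hba-a2, Hbb-bs and Hbb-bt had to reach 10% of the UMIs of the barcode. The rule gave 55 of 6684 barcodes, 34 of 3110 in the KO library and 21 of 3574 in the WT library. The KO library came from mice with Hif1a, a subunit of the hypoxia-inducible transcription factor, knocked out in NK cells. The WT library came from wild-type mice. In both groups the mice had carried subcutaneous tumors of RMA-S, a mouse lymphoma line with little surface MHC class I, for 2 weeks, and cells lacking CD3ε and carrying NK1.1 were sorted from them for 10x Chromium 3′ libraries. The labels give neither the number of mice or tumors behind each library, nor the Cre driver, the deleted part of Hif1a, or any age.

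The KO library held 13407906 UMIs over 27998 genes and the WT library 19553440 UMIs over the same genes, and the libraries shared 19 barcode sequences, with 0 hemoglobin-rich barcodes among them. With 1 library per genotype there is no replicate check, no test between genotypes was possible, and every interval below is an exact 95% interval that covers counting error only. Hif1a itself had 0 UMIs in KO and 1 UMI in WT hemoglobin-rich barcodes, against 60.6 and 58.2 per 1000000 non-globin UMIs in the other KO and WT barcodes. A tag at the 3′ end does not check the KO label where the deleted part is not given.

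Hemoglobin is built from alpha and beta globin chains that each hold a heme group, and red cell precursors make both chains in great excess over other proteins. Late in maturation the precursor expels its nucleus and becomes a reticulocyte, which keeps globin messages while it clears mitochondria, ribosomes and much of its proteome. Mature red cells circulate in every vascularised tissue, tumors included, and carry neither nucleus nor mitochondria. Lymphocytes such as NK cells are not known as globin producers.

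The adult globin genes and Alas2, whose product catalyses the rate-limiting step of erythroid heme synthesis, share erythroid promoter letters, and their promoters are shown because these are the genes that mark the barcodes. Each line gives the 250 bases before the annotated start (RefSeq, GRCm38.p6), 5′ to 3′ on the strand of the gene, with the letters GATAA or TTATC (the core bound by GATA factors, on either strand) and CACCC or GGGTG (the core bound by KLF factors, on either strand) in capitals. The windows lie at chrX:150547167-150547416 on the plus strand (Alas2), chr11:32283422-32283671 on the plus strand (Hba-a1), chr7:103827929-103828178 on the minus strand (Hbb-bs) and chr7:103813924-103814173 on the minus strand (Hbb-bt).
Alas2: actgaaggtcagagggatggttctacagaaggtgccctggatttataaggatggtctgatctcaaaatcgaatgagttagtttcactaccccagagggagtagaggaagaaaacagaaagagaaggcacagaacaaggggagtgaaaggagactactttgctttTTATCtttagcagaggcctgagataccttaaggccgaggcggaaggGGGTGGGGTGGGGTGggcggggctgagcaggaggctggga
Hba-a1: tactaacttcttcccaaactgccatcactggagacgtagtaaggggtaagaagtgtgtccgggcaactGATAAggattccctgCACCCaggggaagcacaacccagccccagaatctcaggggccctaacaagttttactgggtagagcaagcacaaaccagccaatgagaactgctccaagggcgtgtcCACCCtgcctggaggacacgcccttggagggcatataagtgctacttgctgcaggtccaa
Hbb-bs: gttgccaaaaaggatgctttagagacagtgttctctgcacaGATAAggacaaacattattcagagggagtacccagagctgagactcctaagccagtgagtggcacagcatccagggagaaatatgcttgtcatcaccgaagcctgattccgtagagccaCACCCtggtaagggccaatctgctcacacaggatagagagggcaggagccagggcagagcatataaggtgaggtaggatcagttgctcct
Hbb-bt: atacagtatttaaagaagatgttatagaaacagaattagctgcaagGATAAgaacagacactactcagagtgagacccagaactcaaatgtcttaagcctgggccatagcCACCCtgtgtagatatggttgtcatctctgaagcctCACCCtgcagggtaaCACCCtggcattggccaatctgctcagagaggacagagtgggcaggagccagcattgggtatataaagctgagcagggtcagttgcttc
All 4 windows held GATAA or TTATC 1 time, and CACCC or GGGTG 3 times in Alas2, 2 times in Hba-a1, 1 time in Hbb-bs and 3 times in Hbb-bt. Of 32851 promoters of the same length, 22.6% held the GATA letters, 52.0% the CACCC letters and 10.1% both. The Hba-a2 window shared a stretch of 247 identical bases with that of Hba-a1. A match describes letters and not a bound site. In GENCODE M21 on GRCm38, the protein-coding genes themselves span chrX:150547375-150570638 (Alas2), chr11:32283511-32284465 (Hba-a1), chr7:103826534-103828096 (Hbb-bs) and chr7:103812524-103813996 (Hbb-bt). The starts of these GENCODE genes lie inside the windows, so part of each window is within the gene as GENCODE annotates it.

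The hemoglobin-rich barcodes stood far apart from all others in globin share, which is a description since this value chose them. They made up 1.09% of the KO library (interval 0.758 to 1.52%) and 0.588% of the WT library (0.364 to 0.897%). Globin held a median of 93.1% of their UMIs in the KO library (74.2 to 95.5%) and 92.2% in the WT library (30.7 to 94.99%). At least 85% was reached by 32 of 34 KO and 17 of 21 WT barcodes. The lowest values inside the threshold were 74.2% in the KO library and 30.7% in the WT library. Just outside it stood a KO barcode with 1.10% (30 of 2730 UMIs) and a WT barcode with 2.93% (148 of 5058 UMIs), and every other barcode had at most 0.317% in the KO library and 0.154% in the WT library. The plot of globin share by depth shows this gap.

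**Figure D1:**
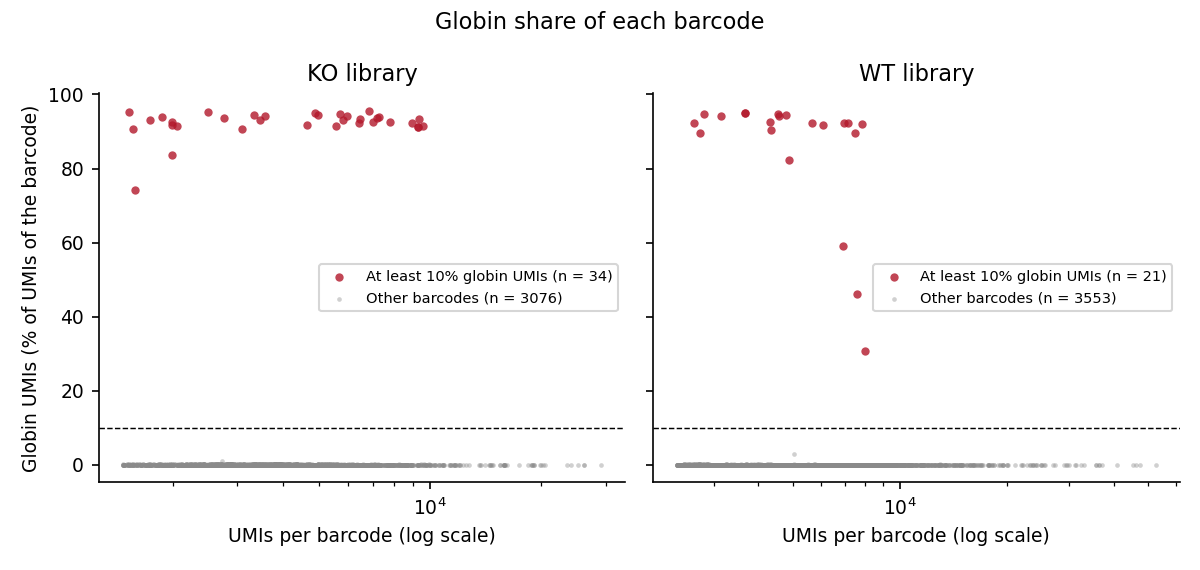
Globin UMIs as a percentage of all UMIs (y axis) against UMIs per barcode (x axis, log scale) in the KO (left) and WT (right) library, 1 point per barcode, with the 10% rule as a dashed line. The 34 KO barcodes lie at 74.2% or above, while 3 WT barcodes lie between the cloud near the top and the other barcodes.

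Their total depth was like that of the NK cells, and almost all of it was globin. They had a median of 4920 UMIs in the KO library (1520 to 9543) and 4791 in the WT library (2647 to 7983), against 3789 and 4438 in the other KO and WT barcodes. Without the 4 globins the medians were 318 UMIs in the KO (73 to 818) and 413 in the WT library (147 to 5533), against 3787.5 and 4435 in the others. They showed a median of 237 and 310 genes, against 1511 and 1629. A filter of at least 500 genes would have kept 0 of 34 KO and 4 of 21 WT hemoglobin-rich barcodes.

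In the WT library 3 barcodes stood apart, with 30.7%, 46.2% and 59.0% globin among 7983, 7597 and 6918 UMIs. They had 1749, 1523 and 1182 genes, and held 64.0% of the non-globin UMIs of all 21 WT barcodes (12454 of 19461). Results that rest on non-globin RNA are therefore also given for the 18 WT barcodes with at least 70% globin, a limit chosen after seeing the data, which keeps all 34 KO barcodes.

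Within the globin, Hbb-bs, an adult beta globin gene, took 41.9% of globin UMIs in KO and 44.5% in WT hemoglobin-rich barcodes. Hba-a1 took 27.2% and 26.2%, Hba-a2 22.9% and 21.05%, and Hbb-bt, the paired adult beta gene, 8.08% and 8.31%. Reads of the copies may be exchanged, since 80.1% of the 50-base windows in the last 300 bases of Hba-a1 also occur in Hba-a2, and 36.7% of those of Hbb-bs in Hbb-bt. Sums of alpha over sums of beta chains avoid that split: the ratio was 1.001 in KO and 0.894 in WT hemoglobin-rich barcodes.

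Globin UMIs also occurred in most KO barcodes outside the rule, at low numbers and in another mixture. The other barcodes held 3910 globin UMIs in the KO library, in 67.4% of them and 1.27 per barcode, and 2587 in the WT library, in 46.7% and 0.728 per barcode. Hbb-bs took 61.5% of these UMIs in the KO library (59.9 to 63.0%) and 66.0% in the WT library (64.1 to 67.8%), above its share in the hemoglobin-rich barcodes. The ratio of alpha to beta was 0.450 and 0.395. Alas2 had 16 UMIs (Poisson interval 9.15 to 26.0) in the other KO barcodes and 11 (5.49 to 19.7) in the other WT barcodes, where the ratio of Alas2 to globin in the hemoglobin-rich barcodes would give 8.52 and 5.20.

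Minor globins were found almost only in the hemoglobin-rich barcodes. Hbb-bh1, an embryonic beta-like gene in mouse, had 54 UMIs in 23 of 34 KO barcodes and 47 in 20 of 21 WT barcodes, with 0 to 6 per KO and 0 to 7 per WT barcode. Among the other barcodes the KO library held 0 UMIs of it and the WT library 2. None of the 50-base windows of its last 300 bases occurred in Hbb-bs or Hbb-bt (0 shared). Hbb-bh2 had 7 and 4 UMIs, Hbq1a, a theta-like alpha gene, 2 and 5, Hbq1b 1 and 1, Hbb-y, an embryonic beta gene, 3 and 0, and Hba-x, the embryonic alpha gene, 0 and 4. These 5 genes together had 0 UMIs in the other barcodes of both libraries. Shared windows were not measured for these 5 genes, and how reads of globin genes had been assigned is not given in the sources used here.

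Beyond globin, the hemoglobin-rich barcodes carried a set of late erythroid messages. Over 5 erythroid lists (heme, transcription factors, membrane, metabolism and maturation, with 75 of 76 genes in the tables and the 4 globins left out), they held 1239 UMIs in the KO library, or 10.1% of non-globin UMIs against 0.616% in the other barcodes, a ratio of 16.4 (15.5 to 17.3). In the WT library they held 768 UMIs, or 3.95% against 0.607%, a ratio of 6.50 (6.04 to 6.97). In the 18 WT barcodes with at least 70% globin the share was 9.33% and the ratio 15.4 (14.2 to 16.6). All 34 KO and all 21 WT barcodes had such a UMI, with a median of 26.5 and 25 per barcode, while the other barcodes had 24 and 28 at the greater non-globin depth given above.

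Heme synthesis was led by 3 genes. Alas2 had 339 UMIs in 32 of 34 KO barcodes, with a lowest, median and highest value of 0, 9.5 and 32 per barcode, and 182 in 20 of 21 WT barcodes, with 0, 8 and 15. The other barcodes' share would have given 0.0148 and 0.0110 UMIs. Fech, ferrochelatase, which inserts iron into the porphyrin, had 51 and 40 UMIs against 0.145 and 0.140 expected. Slc25a37, mitoferrin-1, which brings iron into mitochondria, had 38 and 13 against 0.171 and 0.189 expected. The remaining 9 genes of the 12 were nearly silent: Urod had 2 and 2 UMIs, Alad and Slc25a38 1 each in the KO library alone, and the others, Tfrc among them, 0. The list as a whole held 432 and 237 UMIs, ratios of 164 (148 to 182) and 60.0 (52.4 to 68.4), and 143 (124 to 165) in WT barcodes with at least 70% globin.

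Red cell metabolism showed the same picture of a few strong members. Bpgm, which makes the 2,3-bisphosphoglycerate that lowers the oxygen affinity of hemoglobin, had 117 UMIs in 21 KO barcodes and 56 in 14 WT barcodes, against 0.168 and 0.269 expected. Gpx1, a glutathione peroxidase that removes peroxides, had 50 and 24 UMIs against 0.975 and 1.77 expected, but lay in only 9 KO and 7 WT barcodes, with 17 of the 50 and 11 of the 24 in 1 barcode each. Prdx2, an abundant red cell peroxidase, had 8 and 8 UMIs (1.49 and 2.74 expected). Car2, a carbonic anhydrase, had 2 and 1, where the NK-rich barcodes' share would give 5.99 and 7.16.

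Genes of reticulocyte maturation and organelle clearance held the most UMIs of the 5 lists, 503 in the KO library and 367 in the WT library. Their ratios to the other barcodes were lower than those of the heme list (164 and 60.0). They were 8.56 (7.82 to 9.34) in KO and 3.90 (3.51 to 4.32) in WT hemoglobin-rich barcodes. In WT barcodes with at least 70% globin the ratio was 8.99 (8.01 to 10.1). Ube2l6, a ubiquitin-like conjugating enzyme, had 120 UMIs in 28 of 34 KO barcodes and 62 in 20 of 21 WT barcodes, against 0.0269 and 0.0571 expected. Mkrn1, a ubiquitin ligase, had 95 and 82 against 1.63 and 2.43, and Fam46c, a poly(A) polymerase, 57 and 25 against 0.405 and 0.206. Bnip3l, the receptor that hands mitochondria to autophagy in reticulocytes, had 44 and 25 against 1.70 and 2.73. The autophagy proteins' genes Gabarapl2 and Map1lc3b had 47 and 17 (3.71 and 4.62 expected) and 28 and 14 (4.23 and 6.13 expected). Ubb, a ubiquitin gene, had 77 and 119 against 45.5 and 75.7 and did not pass 2-fold, but in WT barcodes with at least 70% globin it had 82 against 27.3 (log2 1.55).

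Membrane genes and transcription factors had few UMIs. The 21 membrane genes held 26 and 18 UMIs, of which Epb41, protein 4.1, had 15 and 7, while Slc4a1, the anion exchanger band 3, had 1 and 0. Their share of non-globin UMIs was still above that of the other barcodes. The ratio was 21.9 (14.2 to 32.2) in KO and 11.7 (6.93 to 18.6) in WT hemoglobin-rich barcodes. In WT barcodes with at least 70% globin it was 30.8 (17.9 to 49.4). The 12 erythroid transcription factors held 3 and 5 UMIs, with Gata1, Klf1, Tal1 and Gfi1b at 0 in both libraries. Their ratios to the other barcodes were 3.47 (0.715 to 10.2) and 4.61 (1.49 to 10.8). In WT barcodes with at least 70% globin the ratio was 10.2 (2.78 to 26.3), on 4 UMIs. The erythroid progenitor list held 1 UMI (Gfi1) in KO and 0 in WT barcodes, with Kit, Epor and Gata2 at 0. The S and G2M list held 16 and 13 UMIs, ratios of 2.41 (1.38 to 3.92) and 0.779 (0.415 to 1.33). Of these UMIs Ube2c, a conjugating enzyme of the mitotic ubiquitin ligase, had 11 in 5 KO barcodes and 3 in 2 WT barcodes. The other barcodes' share would have given 0.0640 and 0.481 Ube2c UMIs, and Mki67 was at 0 in both libraries. The summed non-globin depth limits these zeros: a count of 0 allows up to 244 per 1000000 in KO and 154 in WT hemoglobin-rich barcodes, and 428 in the 18 WT barcodes with at least 70% globin. The plot of erythroid and NK genes sets these levels side by side.

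**Figure D2:**
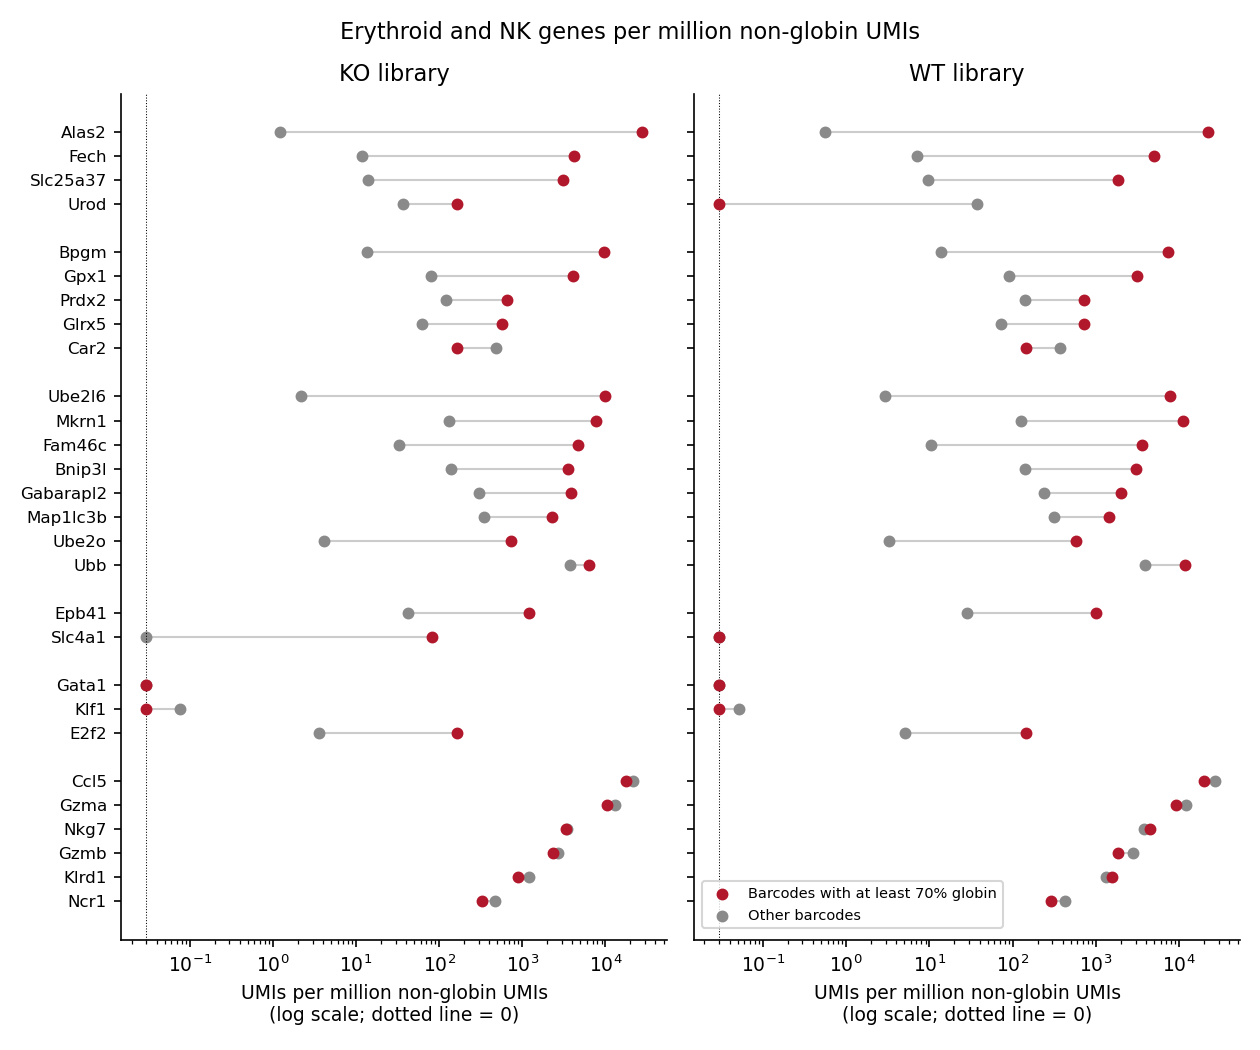
UMIs per 1000000 non-globin UMIs (x axis, log scale, 0 at the dotted line) of erythroid genes and, at the bottom, 6 NK genes, in barcodes with at least 70% globin (red) and other barcodes (grey), KO left and WT right. Erythroid genes such as Alas2 and Ube2l6 lie orders of magnitude apart, while the 6 of 25 NK genes shown lie close together on this scale. Ccl5 and Gzma still lie lower in these barcodes in both libraries. Klrb1c and Klrk1, with ratio intervals below 1 in KO and WT respectively, are not shown.

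Few of the 27998 genes had enough counts for a comparison, and most of these lay within 2-fold of the other barcodes in each library. Of 186 genes with observed plus expected counts of at least 20 in both libraries, 23 (12.4%) were higher past 2-fold in both libraries and 1 (0.538%) was lower. In the KO library alone 28 (15.1%) were lower, and in the WT library alone 5 (2.69%). Of the 23, 12 belonged to the erythroid lists or other globins. These 12 were all of the 1 other-globin, 2 heme and 3 metabolism genes tested and 6 of the 7 maturation genes tested. Such genes passed the filter through their counts in the hemoglobin-rich barcodes, so these counts are a description. The filter likewise favoured high ratios among the 12 of 75 erythroid list genes that were tested, so their median is no support. That median log2 ratio was 5.28 in the KO library and 4.51 in the WT library, and over all 186 genes it was -0.36 and -0.08. In barcodes with at least 70% globin, 20 of 127 genes (15.7%) were higher and 8 (6.3%) lower in both libraries, with 13 (10.2%) lower in the KO library and 18 (14.2%) in the WT library.

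The other 11 higher genes lay outside the lists. Fam220a had 82 UMIs in KO and 40 in WT hemoglobin-rich barcodes, log2 ratios of 5.72 and 4.42. Isca1, an iron-sulfur cluster assembly factor, had 27 and 23 UMIs (4.18 and 3.71), and March2, a membrane-bound ubiquitin ligase, 25 and 25 (3.90 and 3.57). Sec61g, a subunit of the translocon, had 82 and 53 UMIs (3.35 and 1.93), and Oaz1, the ornithine decarboxylase antizyme, 119 and 89 (2.82 and 1.76). The ferritin chains were among them: Ftl1, the light chain, had 168 and 91 UMIs (log2 2.77 and 1.39) and was present in all 34 KO barcodes, and Fth1, the heavy chain, named after its values were seen, had 54 and 53 UMIs (1.52 and 1.18). In WT barcodes with at least 70% globin the log2 ratios were 4.87 for Fam220a, 4.01 for Isca1 and 4.07 for March2. They were 3.04 for Sec61g, 2.50 for Oaz1, 2.37 for Ftl1 and 2.01 for Fth1. The 23 genes together held 14.6% of non-globin UMIs in KO and 5.72% in WT hemoglobin-rich barcodes, against 0.815% and 0.768% in the others, and 13.2% in WT barcodes with at least 70% globin.

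Few genes were lower in both libraries at once. Sh3bgrl3, a small thioredoxin-fold protein, was the 1 gene lower in both libraries over all members, with 7 UMIs in KO (18.2 expected) and 15 in WT hemoglobin-rich barcodes (34.4 expected). In barcodes with at least 70% globin the 8 lower genes were 7 of the 67 ribosomal protein genes tested, among 127 genes in all, and Tmsb10, an actin-binding thymosin, with 21 UMIs in KO barcodes (76.8 expected) and 15 in WT barcodes (50.6 expected). Rps28 had 9 (44.9 expected) and 4 (24.6 expected), and both Tmsb10 and Rps28 were named after their values were seen. Malat1, a long non-coding RNA retained in the nucleus and named likewise, had 120 UMIs in the KO hemoglobin-rich barcodes against 347 expected, a ratio of 0.346 (0.287 to 0.414). In the 18 WT barcodes with at least 70% globin it had 112 against 141, a ratio of 0.795 (0.655 to 0.957), and 62 of these 112 lay in 1 barcode.

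**Figure D3:**
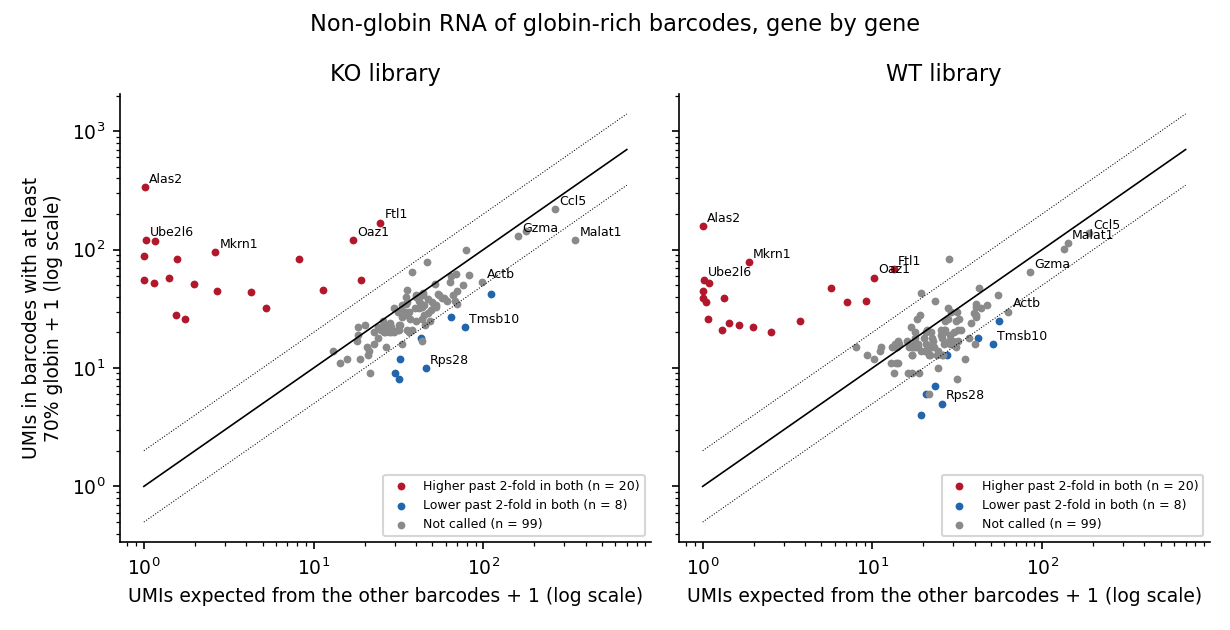
UMIs in barcodes with at least 70% globin (y axis) against UMIs expected from the other barcodes of the same library (x axis), both plus 1 on log scales, 1 point per gene for 127 genes, with equality (solid) and 2-fold (dotted) lines. The 20 red genes lie above the upper 2-fold line, from Alas2 far above it on the left to Fth1 nearest to it. The 8 blue genes lie below the lower 2-fold line, and Ccl5 and Gzma lie near equality.

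NK transcripts were present in every hemoglobin-rich barcode, in small numbers. The 25 NK genes gave a median of 13.5 UMIs per KO barcode (2 to 44) and 19 per WT barcode (5 to 550), against 215 and 289 in the other barcodes. All 34 KO and 18 of 21 WT barcodes had fewer NK UMIs than the 10th percentile of the others, which was 103 in the KO library and 128 in the WT library. As a share of all UMIs, the list took 0.344% in KO and 1.14% in WT hemoglobin-rich barcodes, against 5.73% and 6.20%.

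As a share of non-globin RNA, however, NK transcripts were close to the level in the other barcodes. The list took 4.70% of non-globin UMIs in the KO library against 5.73%, a ratio of 0.819 (0.754 to 0.889). In the WT library it took 6.42% against 6.20%, a ratio of 1.04 (0.979 to 1.09), and 4.71%, a ratio of 0.759 (0.680 to 0.846), in the 18 barcodes with at least 70% globin. This share lay between the 10th and 90th percentile of the other barcodes in 30 of 34 KO and 20 of 21 WT barcodes, and below it in 4 KO barcodes and above it in 1 WT barcode. The plot of NK UMIs against non-globin UMIs shows both per barcode.

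**Figure D4:**
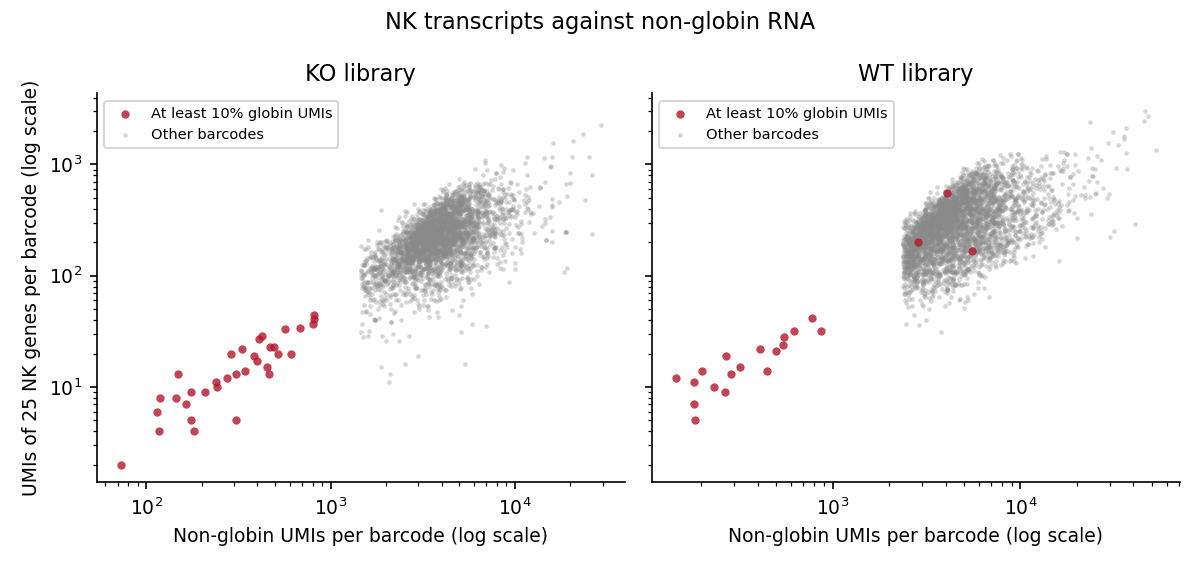
UMIs of 25 NK genes (y axis, log scale) against non-globin UMIs (x axis, log scale) per barcode, hemoglobin-rich barcodes in red and others in grey, KO left and WT right. The KO barcodes continue the grey cloud downwards to 2 NK UMIs, and 3 WT barcodes lie inside the cloud.

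The NK RNA was led by the same genes as in the other barcodes. Ccl5, a chemokine, and Gzma, granzyme A, together made up 60.3% of the NK UMIs in KO hemoglobin-rich barcodes against 60.1% in the others, and 61.2% against 62.6% in WT barcodes with at least 70% globin (70.7% over all 21 WT barcodes). Ccl5 had 219 UMIs in 32 of 34 KO barcodes (263 expected), and 138 in all 18 such WT barcodes (188 expected). Gzma had 129 in 33 of 34 KO barcodes (160.0 expected). Nkg7, a granule membrane protein, had 41 in the KO library (42.3 expected). The interval of the ratio held 1 for 22 of the 25 genes in KO barcodes, 20 in all WT barcodes and 22 in WT barcodes with at least 70% globin, and it is wide for the sparse genes. In KO barcodes it lay below 1 for Klrb1c, Gzma and Ccl5. Over all WT barcodes it lay above 1 for Ccl5, with 738 UMIs against 522 expected and 363 of them in 1 barcode, and below 1 for Gzma, Gzmb, Klrk1 and Xcl1. In WT barcodes with at least 70% globin it lay below 1 for Gzma, Klrk1 and Ccl5. The NK-defining receptors Ncr1 (NKp46) and Klrb1c (NK1.1, the sorted antigen) had at least 1 UMI in 7 of 34 KO and 8 of 21 WT barcodes, and 0 of the 10 NK genes tested passed 2-fold in both libraries.

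At equal depth, Alas2 separated the hemoglobin-rich barcodes from the others, while the abundant NK genes were detected at similar rates. Thinning to 1000 non-globin UMIs left 0 KO barcodes, so 200 was used, chosen after seeing the data, which kept 24 of 34 KO and 17 of 21 WT barcodes and left out 10 and 4. Gzma was then seen in 83.3% of KO and 82.4% of WT hemoglobin-rich barcodes, against 81.2% and 75.7% of the others, and Nkg7 in 45.8% and 52.9%, against 48.1% and 52.3%. Alas2 was seen in 91.7% (73.0 to 99.0%) and 88.2% (63.6 to 98.5%), against 0% and 0.0563%. The 0% (0 of 3076) allows up to 0.0975% when read against a floor of 3, which is not an exact interval. Klrb1c was seen in 1 of 24 KO and 2 of 17 WT hemoglobin-rich barcodes, against 15.1% of the others in both libraries, and Malat1 in 75.0% and 82.4%, against 98.2% and 94.6%. Without thinning, Alas2 was seen in 94.1% of KO hemoglobin-rich barcodes and 0.520% of the other KO barcodes, whose median non-globin depths were 318 and 3787.5 UMIs. Whether the NK UMIs came from free RNA in the droplet or from a cell was not tested.

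The 3 WT barcodes under 70% globin held most of the WT NK RNA. They had 167, 550 and 203 NK UMIs in the order of rising globin share (30.7%, 46.2% and 59.0%), together 920 of 1250, or 73.6%. NK genes took 3.02%, 13.5% and 7.16% of their non-globin UMIs, and 15, 22 and 16 of the 25 genes were detected. Their erythroid lists summed to 0.915% of non-globin UMIs, against 0.607% in the other WT barcodes. Alas2 had 26 UMIs in them, or 25.9 per 10000 globin UMIs, against 19.4 in the 18 WT barcodes with at least 70% globin. The barcode with 30.7% globin held all 12 UMIs of the T cell list found in WT hemoglobin-rich barcodes, 6 of them Cd3e and 4 Cd3d, both subunits of the CD3 complex that the sort selected against. Doublets were not called, and whether these barcodes held more than 1 cell was not tested.

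Markers of other cell types were close to absent. Over 8 lists with 69 genes in the tables, KO hemoglobin-rich barcodes had 10 UMIs and WT ones 18, or 0.0814% and 0.0925% of non-globin UMIs against 0.0696% and 0.0575% in the others. Neutrophil and basophil lists were at 0 in both libraries, macrophage genes had 0 and 1 UMI, dendritic cell genes 1 and 3, and platelet and endothelial genes 1 each per library. Ebf1, a B cell factor, accounted for all 4 B-list UMIs in the KO library, and the WT library had 0. Pf4, Ppbp, Lyz2 and S100a8 were at 0 in both.

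Organelle RNA differed less than the erythroid genes. Mitochondrial genes took a median of 1.14% of non-globin UMIs in KO and 1.10% in WT hemoglobin-rich barcodes, against 1.14% and 1.22% in the others. Summed over barcodes these shares were 1.09% and 1.98%, against 1.31% and 1.34%. Of the 152 mitochondrial UMIs in the 18 WT barcodes with at least 70% globin, 74 lay in 1 barcode. Cytoplasmic ribosomal protein genes took 16.6% in KO and 24.3% in WT hemoglobin-rich barcodes against 24.7% and 26.8%, and 17.3% in the WT barcodes with at least 70% globin.

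The hemoglobin-rich barcodes varied among themselves in step with their depth. Among barcodes with at least 70% globin, Hbb-bt took 3.89% of globin UMIs in the 11 KO barcodes under 3000 UMIs, 7.02% in the 11 with 3000 to 6000 and 9.58% in the 12 with at least 6000. In the WT library it took 5.22%, 7.56% and 10.4% over 3, 10 and 5 barcodes. The Hbb-bt share ranged over 1.34 to 11.5% in single KO barcodes, and over 2.21 to 12.1% in single WT barcodes. Spearman's rho with globin UMIs was 0.745 over 34 KO and 0.692 over 18 WT barcodes, a description of barcodes that share a library.

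Several erythroid messages were likewise more frequent per globin UMI in deeper barcodes, and others were not. Mkrn1 had 1.02, 4.204 and 8.26 UMIs per 10000 globin UMIs over the 3 KO depth classes, and 3.95, 4.22 and 17.8 over the WT classes. Bpgm had 0.510, 7.99 and 8.83 over the KO classes and 1.32, 3.47 and 11.1 over the WT classes. Alas2 had 14.3, 24.8 and 21.8 over the KO classes and 10.5, 20.8 and 19.7 over the WT classes. Ube2l6 (7.14, 6.73 and 8.38 in the KO library) and Ftl1 (12.2, 11.6 and 10.1) had overlapping counting intervals over the classes, while the lowest KO class held 1 Bpgm UMI and 2 Mkrn1 UMIs in all. NK list UMIs per 10000 globin UMIs were highest in the shallowest class. They were 56.6 (46.6 to 68.1), 31.9 (27.1 to 37.5) and 35.5 (31.7 to 39.7) over the KO classes. In the WT library they were 51.4, 35.7 and 45.2, with overlapping intervals. As counts per barcode, non-globin UMIs and NK UMIs went with globin UMIs, with rho of 0.845 and 0.604 in KO and 0.748 and 0.605 in WT barcodes. These measures share the depth of the barcode, and its part was not tested.

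**Figure D5:**
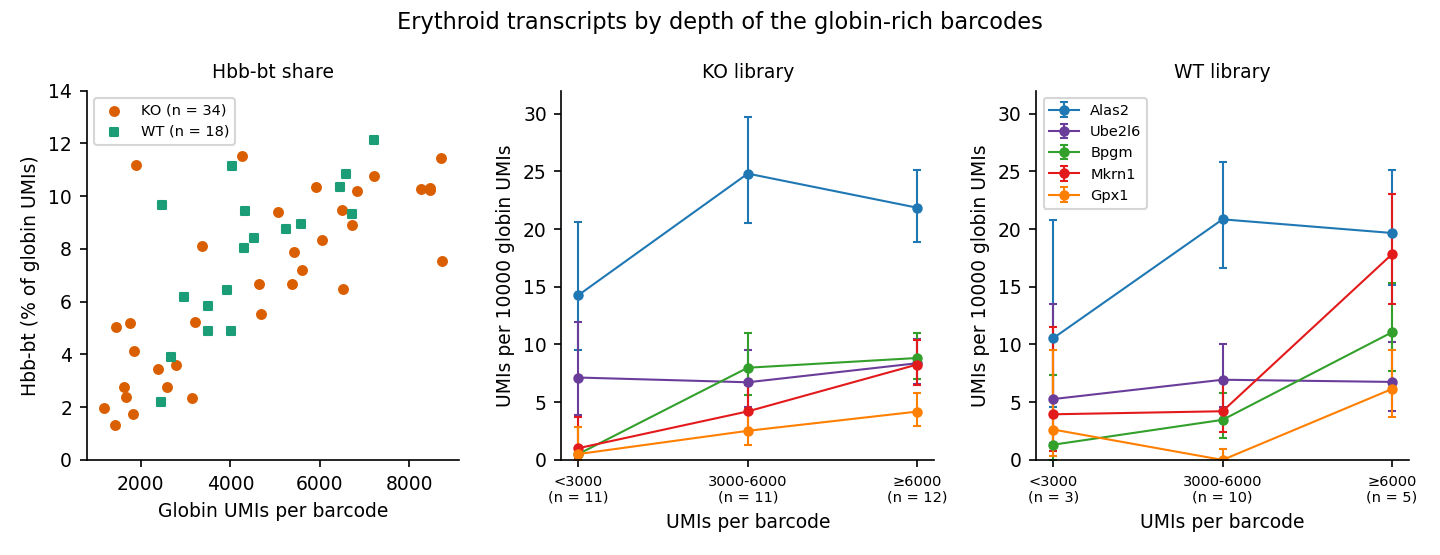
Left, Hbb-bt as a percentage of globin UMIs (y axis) against globin UMIs (x axis) per barcode with at least 70% globin, KO circles and WT squares. Middle (KO) and right (WT), UMIs of 5 genes per 10000 globin UMIs by depth class, with exact Poisson 95% intervals as bars, where Mkrn1 reaches 8.26 and 17.8 in the deepest class.

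Between the libraries, the number of genes apart in hemoglobin-rich barcodes was smaller without the 3 WT barcodes under 70% globin. Of 191 genes with enough counts, 30 (15.7%) were higher and 25 (13.1%) lower past 2-fold in KO than in WT hemoglobin-rich barcodes. With at least 70% globin, 12 of 189 (6.35%) were higher and 14 (7.41%) lower. Alas2 had a log2 ratio of 1.55 over all barcodes and 0.31 with at least 70% globin, and Ube2l6 had 1.59 and 0.34. Of the 25 lower genes, 14 were ribosomal protein and 4 mitochondrial genes, and with at least 70% globin these were 2 and 5 of the 14. Of the mitochondrial UMIs in those 18 WT barcodes, 74 of 152 lay in 1 barcode with 82.2% globin. The same barcode held the 62 Malat1 UMIs given above, and its part in these differences was not tested. Outside both classes, the genes with the lowest ratios were Tmsb10 (-1.61), Btg1 (-1.26), Actb (-1.20), Vps37b (-1.13), Ccl5 (-1.09) and Cox4i1 (-1.07). Without the 3 barcodes Tmsb10 was at -0.31, Btg1 at -0.32, Actb at 0.03, Vps37b at -0.75 and Ccl5 at -0.14, and Cox4i1 had too few counts.

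Among the highest ratios, some also separated the NK-rich barcodes of the libraries. Nr4a1, an immediate-early nuclear receptor, had 20 UMIs in 14 KO barcodes and 3 in WT barcodes, a log2 ratio of 2.86 against 2.23 in the other barcodes, which had 1043 per 1000000 in the KO library and 222 in the WT library. Ccl4, an NK chemokine, had 39 UMIs in 23 KO barcodes and 9 in WT barcodes, a log2 ratio of 2.58 against 1.21. Ralgapa2, a GTPase activator subunit, had 49 and 11 UMIs (2.65 against 0.89), Hspb7, a small heat shock protein, 19 and 4 (2.50 against 1.17), and Ccndbp1 22 and 5 (2.47 against 0.06). Without the 3 WT barcodes the ratios were 2.22 for Nr4a1, 2.68 for Ccl4, 1.73 for Ralgapa2, 2.15 for Hspb7 and 1.24 for Ccndbp1. Ralgapa2, Hspb7 and Ccndbp1 also lay above the other barcodes of the same library. Their shares were 25.3, 28.1 and 27.7 times those of the others in KO, and 6.70, 8.61 and 4.14 times in WT. For Nr4a1 these values were 1.56 in KO and 0.694 in WT, and for Ccl4 0.854 and 0.289. Nr4a1 and Ccl4 were already known to differ between these libraries over all NK cells, so their values here are no independent support. Chrm1, a muscarinic acetylcholine receptor, had 24 UMIs in 17 of 34 KO barcodes, or 1954 per 1000000 against 27.7 in the other KO barcodes. It had 0 in WT hemoglobin-rich barcodes and 12.5 per 1000000 in the other WT barcodes. At the floor of 3 UMIs this 0 allows up to 154 per 1000000 (428 in the 18 barcodes with at least 70% globin). With 1 library each, genotype, animals, sort and depth cannot be told apart in these differences.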

How the data were processed

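The deposited values are raw UMI counts, 1 whole number for each gene in each barcode, without normalization. The submitters' processing notes list Cell Ranger 2.0.2, Seurat and mm10. Aligner settings, annotation, cell calling and doublet removal: not given in the sources used here. All barcodes of both tables entered, with no filter, and 0 value columns were left unused. The members, gene lists and alternatives were chosen with earlier results of these data known.

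Levels are shares of non-globin UMIs, that is without the 4 globins of the rule. The expected count of a gene is the share in the other barcodes of the same library times the non-globin UMIs of the hemoglobin-rich barcodes. Log2 ratios over all genes are of observed plus 1 over expected plus 1, for genes with observed plus expected of at least 20 in both libraries, and a gene was called past 2-fold in the same direction in both. Between KO and WT hemoglobin-rich barcodes, the expected KO count was the share in WT hemoglobin-rich barcodes times the KO non-globin UMIs, with the same added UMI and the same minimum of KO plus expected counts. Intervals are Poisson for sums, Clopper-Pearson for shares and conditional binomial for ratios, all exact at 95%, and treat each UMI as independent, which makes them too narrow for genes held by few barcodes. A count of 0 was read against a floor of 3 UMIs.

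Named genes were the list genes, the 20 highest and 15 lowest called log2 ratios and the 6 highest and 6 lowest KO over WT ratios, without Xist, Y-linked, mitochondrial, ribosomal protein and antigen receptor genes and unnamed models. Ahsp and 5 immune receptor genes were not among the symbols of the tables. Alternatives were other globin thresholds, filters, denominators, comparison barcodes, added counts and depths. For the comparison with other barcodes, the calling was tested on simulated counts of the 187 genes with an expected count of at least 10 in both libraries, a set chosen without the observed counts, with 40 genes changed 4-fold: 100% of raised and of lowered genes and 0% of unchanged genes were called, and the interval covered the true ratio for 95.45%. Positions and 3′ sequence windows were from GENCODE M21 on GRCm38. Python 3.11.15, numpy 2.4.6, scipy 1.17.1, pandas 2.3.3 and matplotlib 3.10.9 were used. Results for some genes of the lists are not reported here, and the list sums include them.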

Additional observations from a re-analysis of the deposited data

How the results depend on the processing

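Thresholds of 5% and 20% globin selected the same barcodes as 10%, since none lay between 2.93% and 30.7%, so they could change nothing. Comparison barcodes under 1% globin were 3075 of 3076 in KO and 3552 of 3553 in WT. Those with at least 5 NK genes were 3073 and 3553, so neither setting could change much. These settings and 0.5 or 3 added UMIs changed no direction and moved no count of genes by over 1.5 times. A rule on UMIs without mitochondrial genes gave nearly the same shares of members. Keeping only barcodes with at least 500 genes and at most 10% mitochondrial UMIs left 0 KO barcodes (0%) and 4 WT barcodes (0.113%), with WT log2 ratios of 0.79 for the erythroid lists and 0.20 for the NK list. There the WT membrane list turned to -0.070, Sec61g to -0.15 and Gabarapl2 to -0.057.

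With all UMIs as the denominator, globin included, the erythroid log2 ratios became 0.26 (KO) and 0.20 (WT), those of the NK list -4.06 and -2.45 and those of other cell types -3.54 and -1.81. The counts became 12 higher and 787 lower genes against other barcodes, and 9 higher and 204 lower between KO and WT. In that setting these turned below 0 in KO and WT: transcription factors (-1.98 and -0.29), maturation (-0.67 and -0.54), Sec61g (-0.25 and -0.48), Sh3glb1 (-0.37 and -0.12), Gabarapl2 (-0.11 and -0.59), Oaz1 (-0.87 and -0.70), Ftl1 (-0.94 and -1.08), Map1lc3b (-1.02 and -1.25) and Pabpc1 (-1.62 and -0.98). The denominator's construction moves these values, since globin fills most of each barcode.

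Without the 5 members with most UMIs per library, which include 2 of the 3 WT barcodes under 70%, the erythroid ratios were 3.89 and 3.25 and the WT NK ratio -0.18, with 15 higher and 6 lower genes against others and 14 and 7 between KO and WT. A filter of at least 10 gave 38, 4, 59 and 41 genes in that order, and no filter 108, 57, 401 and 737, since more genes are then tested. With at least 70% globin, chosen after seeing the data, the WT erythroid ratio was 3.94 and the WT NK ratio -0.40, 8 genes were lower against others, and 12 and 14 were called between KO and WT, with Actb at 0.032. Thinning to 1000 UMIs left 0 KO barcodes. Depth limits all zeros. No paired analysis was possible because each genotype had 1 library.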
